A study of Mus musculus with 4 samples.

Results

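Acid-base and ammonia genes known from the intercalated cells of the kidney collecting duct were followed in cultured ureteric buds of the mouse, epithelial tubes whose branching makes the collecting ducts. The set holds 10 genes (Rhcg, Rhbg, Car2, Car12, Car15, Atp6v1b1, Atp6v0a4, Foxi1, Slc26a4 and Kit). They were chosen by name, with earlier results of these data known, and matched to array probes by accession. Of these, 9 had a probe, among 17305 genes on the array that did, and 4 (Rhcg, Car2, Car12 and Car15) were bright enough to be tested, among 14995 tested features. No probe matched Kit, which was not analysed here. Intact buds were treated for 6 h with angiotensin II (AngII, 1e-05 M), the active peptide hormone of the renin-angiotensin cascade, or with media alone as the control. Both groups lay in matrix gel on inserts and received medium with 10% FBS (serum) and the growth factors GDNF (100 ng/ml) and HGF (100 ng/ml), so the control is a growth factor-stimulated culture and not an untreated bud. The labels give neither the strain nor the age of the mice, nor how many buds or animals made up an RNA. They number 2 AngII RNAs and 2 media RNAs as biological replicates, and the RNAs of 1 number were read together on a pair of two-colour arrays, once in each dye orientation, which gave 4 arrays on 1 slide.

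Intercalated cells secrete acid or base into the forming urine. In the acid-secreting form, cytosolic carbonic anhydrase supplies protons and bicarbonate, a vacuolar proton pump (V-ATPase) with kidney-enriched subunits moves the protons into the lumen, and ammonia leaves through Rh glycoproteins to buffer them. The base-secreting form exports bicarbonate through the chloride exchanger pendrin, and the forkhead factor FOXI1 directs the development of both forms.

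Between 19028 and 21922 of 41174 probes were well above background in a given RNA on a given array. The ratios of AngII over media in the 2 numbered pairs correlated at r = 0.98 across features, which describes these libraries only, since features are not independent. The SD of their half-difference was 1.02 times that of array noise alone. In limma, 0 features differed between the pairs after adjustment and 767 did at an unadjusted p under 0.05. The pairs were therefore counted as 1 independent pair, and p-values from limma reflect the hybridisation spread of these RNAs and no more. In limma 77.2% of all tested features passed at an adjusted p under 0.05, 39.1% of features higher and 38.1% lower under AngII, so passing alone says little about a gene. With the replicate number as a block on the 4 single arrays, which puts the dye difference into the error, 30.9% of features passed, 16.3% higher and 14.6% lower. With the AngII in Cy5 arrays alone 68.3% passed, 38.1% higher and 30.2% lower, and with the AngII in Cy3 arrays alone 75.6% passed, 35.6% higher and 40% lower. List counts under these fits are to be read against these shares. A difference of at least 1.5-fold was rarer, at 5.5% of features higher and 5.4% lower. Markers of ureteric epithelium were tested for 15 of 16 genes, of which 7 rose and 6 fell (3 and 3 with the block), with Epcam at a log2 ratio of 0.73, Gata3 at 0.55, Krt8 at -0.59 and Wnt9b at 1.53, while Ret was not well above background. The summed intensity of the 16 genes, on the normalised linear scale without the offset of 50 that the normalisation adds to each signal, ran from 238223 to 268534 in AngII RNA and from 265886 to 335399 in media RNA, so the ranges overlapped. Such a linear sum, here and below, is weighted toward the brightest genes: Krt19 had a mean log2 intensity of 14.8 and Cdh1 6.49. With the replicate block the limma adjusted p of Krt8 was 0.0814.

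Promoter sequences from RefSeq (GRCm38.p6) are shown for Rhcg and Car15, the tested genes that differed by at least 1.5-fold, as the 250 bases before the annotated start on the gene's strand. The Rhcg window lies at chr7:79617658-79617907 (minus strand) and the Car15 window at chr16:17838187-17838436 (minus strand). Lower-case letters throughout mean that neither window holds the forkhead core.
Rhcg promoter: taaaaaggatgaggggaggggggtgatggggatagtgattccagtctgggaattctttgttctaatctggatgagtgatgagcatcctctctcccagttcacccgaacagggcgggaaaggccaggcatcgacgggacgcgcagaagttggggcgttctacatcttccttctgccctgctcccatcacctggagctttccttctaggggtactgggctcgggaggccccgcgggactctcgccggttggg
Car15 promoter: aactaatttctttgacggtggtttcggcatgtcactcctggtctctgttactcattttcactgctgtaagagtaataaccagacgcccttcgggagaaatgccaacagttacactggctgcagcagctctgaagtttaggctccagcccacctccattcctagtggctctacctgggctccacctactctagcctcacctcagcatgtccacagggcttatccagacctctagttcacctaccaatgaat
The forkhead core TGTTTA was searched on both strands because FOXI1 is a forkhead factor. It was found in 2 of 9 windows of the 8 member genes in the table, against 12.0% of 32851 windows of all genes. The Kit windows overlap, and by gene the core was found in 2 of 8, against 3658 of 27025 genes. The 30 bases around each match are given with the core in capitals. The Atp6v1b1 match, 98 bases before the start, lies at chr6:83742907-83742936 (plus strand), and the Car12 match, 11 bases before an annotated start that lies inside the gene, at chr9:66713656-66713685 (plus strand).
Atp6v1b1 match: taccagcttcccTGTTTAcagtcaacctgg
Car12 match: ctcctgcctgatgacatcaTGTTTAgggtt
The longer form TGTTTAC, which overlaps the core, was found in the Atp6v1b1 window alone, against 3.17% of all windows. A match is a description of the letters and shows no binding.

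Of the 4 tested genes, Rhcg and Car12 rose under AngII and Car15 and Car2 fell. For Car2 the log2 ratio was near 0 with AngII in Cy5, and its call was lost with the replicate block. Rhcg encodes a channel-like carrier that lets ammonia cross epithelia such as the collecting duct, and it had the largest difference of the set. Its processed signal was 1865, 2418, 1678 and 2018 in AngII RNA, against 259.7, 306, 414 and 405 in media RNA, in the order pair 1 and pair 2 with AngII in Cy5, then pair 1 and pair 2 with AngII in Cy3. Every AngII reading lay above every media reading. On the normalised scale the log2 ratio was 1.86, 2.16, 1.56 and 1.85 on these arrays, with a mean of 1.85 ± 0.21 (SD, n = 2 numbered pairs), a 3.62-fold difference (limma adjusted p = 2.31e-20). Of the 14995 features, 12 had a higher ratio, a rank that is a description only, since earlier results were known when the set was chosen. The normalisation adds an offset of 50 to every signal and so shrinks the ratios of dim genes. With an offset of 10, added after seeing the data, the log2 ratio of Rhcg was 2.23. In Agilent's processed signals it was 2.54, a 5.82-fold difference. Those signals also differ in background removal and dye balancing, and the part of each step was not tested.

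**Figure D1:**
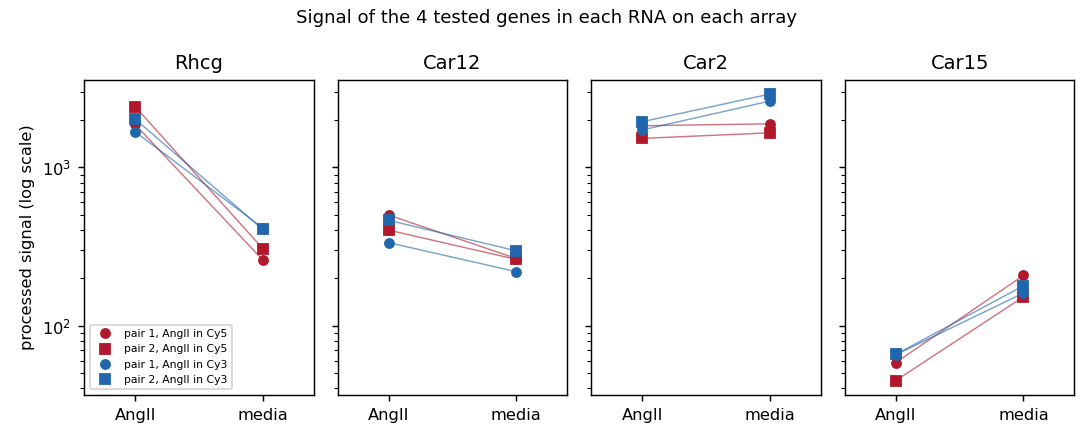
Processed signal (log scale, arbitrary units) of Rhcg, Car12, Car2 and Car15 in AngII and media RNA, with a line joining the 2 RNAs of one array, circles for pair 1, squares for pair 2, red for AngII in Cy5 and blue for AngII in Cy3. AngII lies above media on all 4 arrays for Rhcg and Car12 and below it for Car15, and for Car2 the red lines are nearly flat.

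Rhcg was also the tested gene of the set whose ratio differed most between the numbered pairs. Its log2 ratio was 0.30 higher in pair 2 than in pair 1 with AngII in Cy5 and 0.29 higher with AngII in Cy3. Of all features, 13 had a wider difference between pairs. That difference did not pass over all features (limma adjusted p = 0.934), and both pairs lay far from 0, at 2.00 in pair 2 and 1.71 in pair 1.

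Rhbg, the basolateral Rh glycoprotein and relative of Rhcg, was barely measured. Its processed signal was 37.6, 26.0, 29.3 and 33.5 in AngII RNA, against 28.7, 10.6, 20.3 and 28.4 in media RNA. The AngII signal was the higher on each array, but the groups overlapped and the probe was well above background on 1 of 4 arrays in each RNA. On the normalised scale its mean log2 ratio was 0.04 (-0.04 to 0.12 over the arrays), and it was not tested. The median processed signal of tested probes lay between 522 and 630 in the 8 readings.

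**Figure D2:**
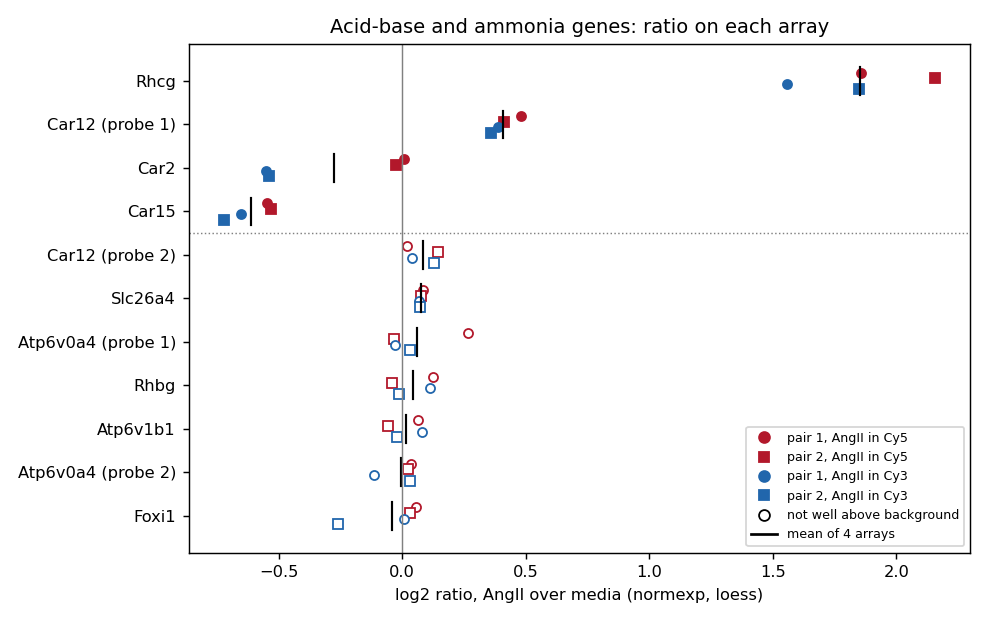
Log2 ratio of AngII over media on each array (x axis) for the 11 probes of the 9 genes with a probe, with filled marks for tested probes, open marks for probes not well above background and a bar at the mean of the 4 arrays. Rhcg lies between 1.56 and 2.16, Car12 (probe 1) between 0.36 and 0.48 and Car15 between -0.72 and -0.53, while Car2 falls into 2 groups by dye and the open marks lie between -0.26 and 0.27.

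The 3 tested carbonic anhydrases of the set did not move together. Car12 encodes a membrane-bound enzyme with an extracellular catalytic domain. Its processed signal was 499, 401, 334 and 462 in AngII RNA, against 265, 262, 219 and 296 in media RNA, with no overlap. The log2 ratio was 0.48, 0.41, 0.39 and 0.36, with a mean of 0.41 ± 0.03 (SD, n = 2 numbered pairs), a 1.33-fold difference (limma adjusted p = 1.27e-10). In the processed signals it was 1.62-fold. A second Car12 probe was not well above background in either RNA on any array.

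Car15, another membrane-bound carbonic anhydrase, moved the other way. Its processed signal was 58.3, 44.9, 65.3 and 65.7 in AngII RNA, against 207, 152, 160.4 and 178 in media RNA, again with no overlap. The log2 ratio was -0.55, -0.53, -0.65 and -0.72, with a mean of -0.61 ± 0.02 (SD, n = 2 numbered pairs), so the gene was 1.53-fold lower under AngII (limma adjusted p = 6.4e-14). Of all features, 718 had a lower ratio. The gene is dim, and in the processed signals it was 2.99-fold lower.

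Car2 encodes the abundant cytosolic carbonic anhydrase of intercalated cells, which red cells also carry. Its processed signal was 1830.1, 1522, 1722 and 1941 in AngII RNA, against 1881, 1651, 2619.9 and 2901 in media RNA. The groups overlapped, and the 2 highest media readings came from the arrays with media in Cy5. The log2 ratio was 0.01 and -0.02 with AngII in Cy5 but -0.55 and -0.54 with AngII in Cy3. The mean of -0.28 ± 0.01 (SD, n = 2 numbered pairs) passed in limma (adjusted p = 8.39e-08), since the dyes were averaged before the test. The pairs gave close means, -0.28 in pair 2 and -0.27 in pair 1, and a dye bias of the probe cancels in a mean over both orientations. With the replicate block the mean stayed at -0.28 and the limma adjusted p was 0.192, since the dye split then enters the error. The AngII in Cy5 arrays alone, whose ratios hold any such dye bias, gave -0.0090 (limma adjusted p = 0.894). The split between dye orientations was wider in 1547 of the 14995 features.

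**Figure D3:**
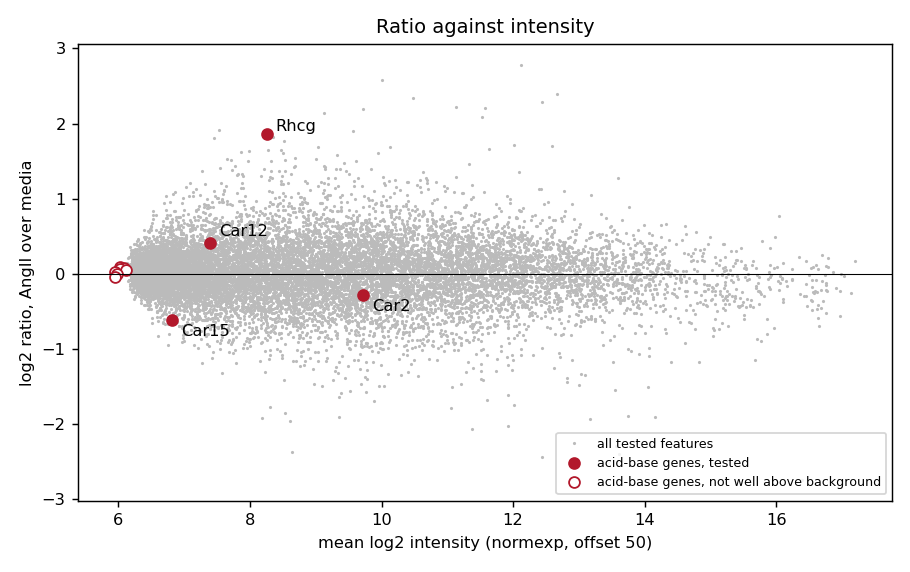
Log2 ratio of AngII over media (y axis) against mean log2 intensity (x axis) for all tested features in grey and for the acid-base genes in red, open where the probe was not well above background. Rhcg stands near the upper edge of the cloud at its intensity, Car15 in the lower part of the cloud, and the open marks sit at the dim end next to 0.

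In the set, 4 genes that define intercalated cells were not measurable. FOXI1's own gene, the V-ATPase subunit genes Atp6v1b1 (B1) and Atp6v0a4 (a4), and Slc26a4, which encodes pendrin, were well above background in 0 of 4 AngII readings and 0 of 4 media readings each. The processed signal of Foxi1 was 4.0 to 6.4 in AngII RNA and 3.5 to 7.3 in media RNA. For Atp6v1b1 it was 5.8 to 8.5 in AngII RNA and 5.6 to 8.4 in media RNA. For Slc26a4 it was 7.9 to 25.0 in AngII RNA and 4.5 to 12.4 in media RNA. Both Atp6v0a4 probes stayed at or below 17.7 in AngII RNA and 15.0 in media RNA. Levels this low give no ratio that can be read, and a lack of change is not shown. In the authors' deposited table Slc26a4 has a log2 ratio of 0.12 with an adjusted p of 0.0341, and the dim Car12 probe 0.11 with 0.0355. The set is thus one of acid-base genes, and its cell type name is not borne out by these 4 defining genes in the buds.

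Other regulators and markers of intercalated cells split both ways or were dim. Of 28 genes on that list 24 had a probe and 13 were tested. Among those, 6 rose, 5 fell and 2 were past neither side, beside 39.1% of all features higher and 38.1% lower. The list's median log2 ratio was -0.04 beside 0.00 for all features, and 0.0077 with AngII in Cy5 alone. With the replicate block 2 rose and 0 fell, and with AngII in Cy5 alone 2 fell. Parm1 rose by 0.84 and Avpr1a, a vasopressin receptor gene, by 0.45. The lowest log2 ratio on the list was -0.39, in a gene that the rule for named genes left out. Grhl2, an epithelial transcription factor gene, had 0.15 and Slc4a9, an anion exchanger gene of base-secreting cells, -0.10, and neither passed with the block (limma adjusted p = 0.116 and 0.299). Those not well above background included Adgrf5, Aqp6, Bsnd, Dmrt2, Foxi1, Hepacam2, Hmx2, Kcnma1, Notch1 and Pde1c. The summed intensity of the 24 genes, with the offset taken off as above, ran from 5963 to 6829 in AngII RNA and from 4853 to 5335 in media RNA. These ranges did not overlap. In RNA from whole buds, a change in the number of cells of a type and a change in RNA per cell cannot be told apart.

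The V-ATPase is built of a cytosolic and a membrane sector, and most of its subunits serve lysosomes in every cell. Of 25 subunit genes 18 were tested, with 10 that rose, 6 that fell and 2 that missed the threshold. The median was 0.16 (0.06 with no filter on dim probes), and with the replicate block 6 rose and 1 fell. Most features passed in either direction, so these counts do not set the list apart from the 77.2% of all features. Tcirg1, which encodes the a3 subunit, rose by 0.71, Atp6v0e2 by 0.63 and Atp6v1g1 by 0.55, and Atp6v0c, the gene of the proton-conducting ring, fell by 0.54. The broadly expressed counterparts of the kidney-enriched subunits hardly differed. Atp6v1b2 (B2) had -0.13 (-0.32 to 0.05 over the arrays) and Atp6v0a1 (a1) -0.09 (-0.30 to 0.16), both past the threshold in limma. Both lost the call with the block (limma adjusted p = 0.380 and 0.557). Atp6v1b2 turned to 0.045 with AngII in Cy3 alone and Atp6v0a1 to 0.10 with AngII in Cy5 alone.

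Among 16 carbonic anhydrase genes 13 were tested. Of these, 8 rose, 3 fell and 2 missed the threshold, beside 39.1% of all features higher and 38.1% lower. The median was 0.23, or 0.36 in the processed signals, and by dye orientation it was 0.35 (AngII in Cy5) and 0.10 (AngII in Cy3). With the replicate block 5 rose and 1 fell, and with AngII in Cy5 alone 1 fell. Beside Car15, the rule for named genes took Car6 and Car13, genes of a secreted and a cytosolic enzyme, which rose by 1.08 and 0.73, and Car9, a membrane enzyme gene induced by hypoxia, which rose by 0.68. Car6 was well above background in 3 of 4 media readings. Car1, the red cell enzyme, had 0.07 (-0.08 to 0.19) and did not pass.

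**Figure D4:**
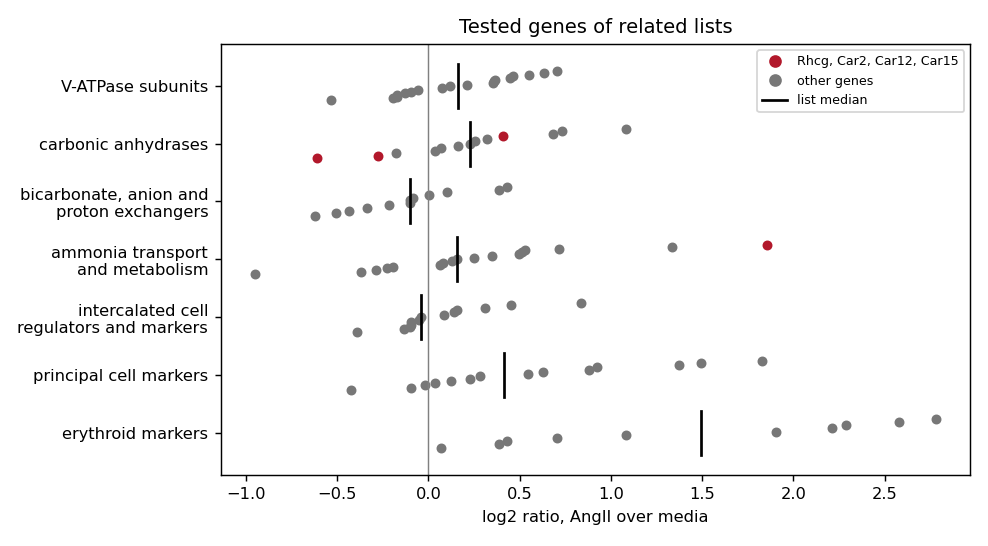
Log2 ratio of AngII over media (x axis) for the tested genes of 7 lists, with Rhcg, Car2, Car12 and Car15 in red, other genes in grey and a bar at each list's median. Car15 and Car2 have the lowest ratios of the carbonic anhydrase list, Car12 lies above its median and Rhcg has the highest ratio of the ammonia list, and the erythroid and principal cell lists have the highest medians, 1.495 and 0.415.

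Exchangers carry bicarbonate, other anions and protons across the membranes of most cells. Of 25 genes 12 were tested, with 3 that rose, 8 that fell and 1 that missed the threshold, beside 39.1% of all features higher and 38.1% lower. The median was -0.10, or -0.25 in the processed signals, -0.03 when dim probes were kept and -0.22 with AngII in Cy3 alone. With AngII in Cy5 alone it was -0.02 and 4 fell. With the replicate block 1 rose and 2 fell. The sodium bicarbonate cotransporter gene Slc4a7 fell by 0.62 and the anion exchanger gene Slc4a3 by 0.51. Slc4a3 missed the threshold with the block (limma adjusted p = 0.0618). Slc4a1, the exchanger of red cells and of acid-secreting intercalated cells, rose by 0.43.

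Beside Rhcg, genes of ammonia transport and metabolism included 2 of the urea cycle that rose. Ass1 and Asl, which encode successive enzymes of arginine synthesis, rose by 1.33 and 0.72, while the glutamine transporter gene Slc38a2 fell by 0.95. Of 22 genes on the list 17 were tested. Among them, 11 rose, 5 fell and 1 missed the threshold, beside 39.1% of all features higher and 38.1% lower. The median was 0.16, or 0.09 when dim probes were kept and 0.25 with AngII in Cy3 alone, and with the block 7 rose and 2 fell. Rhag and Rhd, the red cell relatives of Rhcg, were not well above background in either RNA on any array.

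Markers of other cell types moved at the same time. Of 10 tested erythroid genes 9 rose, beside 39.1% of all features. The list's median was 1.495 (0.25 with no filter on dim probes). Hbb-bt, a globin gene, had 2.78, Hbb-bh1 2.58, Hba-a1 2.29 and Hbb-y 2.21. The summed intensity of the 18 erythroid genes with a probe, the offset taken off, ran from 33031 to 41039 in AngII RNA and from 6502 to 7698 in media RNA. Those not well above background included Epb42, Ermap, Gata1, Klf1, Rhag and Rhd. The part of red cell RNA in the ratios of Car2, Car1 and Slc4a1 was not tested. Some globin genes have near-identical copies, so their probes can read more than 1 transcript.

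Principal cells, the sodium- and water-transporting partners of intercalated cells, had 14 of 18 marker genes tested. Of those, 10 rose, 2 fell and 2 missed the threshold, beside 39.1% of all features higher and 38.1% lower. The median was 0.415, or 1.115 in the processed signals, 0.63 with the stricter filter and 0.23 with no filter on dim probes. Scnn1g, the gamma subunit gene of the epithelial sodium channel, rose by 1.83, Fxyd4 by 1.495, the transcription factor gene Elf5 by 1.38 and Gata2 by 0.92. The list's lowest log2 ratio was -0.43, in a gene that the rule for named genes left out. The summed intensity of 17 genes with a probe, the offset taken off, ran from 5905 to 7253 in AngII RNA and from 3893 to 4253 in media RNA, and Aqp4, Hsd11b2 and Kcnj1 were not well above background. The part of a change in cell makeup in the rise of Rhcg was not tested. Of 11441 named genes, those nearest to Rhcg in the 4 log2 ratios were Scnn1g at a Euclidean distance of 0.386, the smooth muscle actin gene Acta2 at 0.405, Spp1 at 0.460, Ckmt1 at 0.480 and the embryonic globin gene Hba-x at 0.508. This is a description over 4 arrays of the same RNAs.

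**Figure D5:**
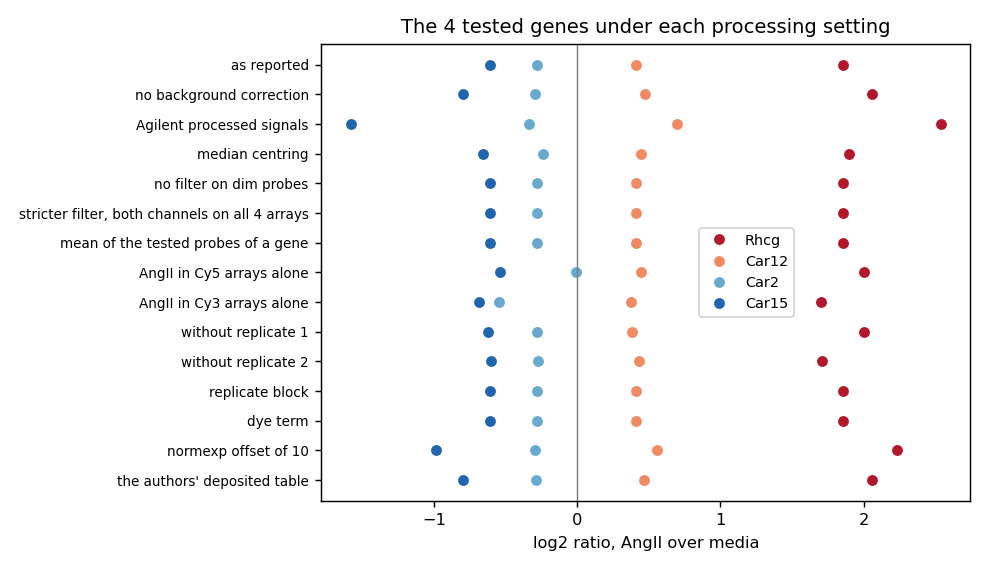
Log2 ratio of AngII over media (x axis) for Rhcg, Car12, Car2 and Car15 as reported and under 14 other settings of the processing (y axis). Rhcg stays between 1.70 and 2.54, Car12 between 0.37 and 0.69 and Car15 between -1.58 and -0.54, and Car2 reaches -0.0090 with AngII in Cy5 alone.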

How the data were processed

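RNA of AngII and media buds was compared on 4 two-colour Agilent arrays. The labelling used 300 ng of RNA per sample, per the labels' protocols. Per the file headers, the scanner software was Feature Extraction 10.5.1.1. The submitters' processing notes name limma with no version. Of the deposited intensity columns, the median pixel intensity of spot and background is raw, while the processed intensity had its background removed and dyes balanced by that software, per the file headers. A log10 ratio (red over green) is deposited as well and was not used. In the authors' deposited table each spot has a log2 ratio, an adjusted p-value and a call, which serves as a score, and the design behind them is not given in the sources used here. The table's log2 ratios correlated with those computed here at r = 0.995 across features, so they run as AngII over media.

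The analysis used limma 3.58.1 (R 4.3.3): normexp with an offset of 50, within-array loess (weight 0 for controls), outlier-flagged spots left out, saturated spots kept, spots of a probe averaged, and arrays with AngII in Cy3 turned. The 2 arrays of a pair were averaged and the 2 ratios tested against 0 with lmFit and eBayes, with Benjamini-Hochberg adjustment over all tested features at 0.05. A probe was tested if well above background on all 4 arrays in its AngII or its media channel (19393 probes), and a gene was represented by its brightest tested probe. Levels of single RNAs are Agilent's processed signals. RefSeq genes of GRCm38.p6 named 25097 probes. Apart from the promoter windows and matches (GRCm38.p6), coordinates of genes are not given, since the arrays were annotated on mm9.

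Both RNAs of an array carry the same number, so its ratio already holds the pairing, and the labels name no separate animals or cultures. The deviations of the pairs from their mean correlated at 0.834 between the channels, which share spots. The members and lists were chosen with earlier results of these data known. Genes named are the 10 members, up to 4 tested genes per list with the largest ratios of one sign on all 4 arrays past the threshold, 5 nearest to Rhcg, and Rhag, Car1, Atp6v1b2, Atp6v0a1, Slc4a1, Slc4a9 and Kitl. Some genes that the rule or the lists hold are not reported here. The fit was tested on simulated data. An offset of 10 was added as an alternative after seeing the data.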

Additional observations from a re-analysis of the deposited data

How the results depend on the processing

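Rhcg, Car12 and Car15 kept their direction and their side of the threshold under all alternatives that gave a test. Car2 lost its call with AngII in Cy5 alone (log2 ratio -0.0090) and with the replicate block (-0.28), and under each of these 1 member was lower in place of 2. Leaving out one numbered pair gave a value with no test. Pair 1 alone gave 1.71 for Rhcg, 0.43 for Car12, -0.27 for Car2 and -0.60 for Car15. Pair 2 alone gave 2.00 for Rhcg, 0.39 for Car12, -0.28 for Car2 and -0.63 for Car15. With an offset of 10, chosen after seeing the data, Rhcg had 2.23 and Car15 -0.99. Atp6v0a1 (0.10, AngII in Cy5 alone) and Atp6v1b2 (0.045, AngII in Cy3 alone) turned sign. The replicate block, which leaves the dye differences in the error, left 4638 in the count of all features past threshold, against 11569 without it. Of 809 values of 58 other named genes 783 counted as unchanged, 20 lost the call and 4 gained it. The 783 include values with 1 numbered pair left out, which have no call to keep. With 2 pairs such a value always lies within the SD of the pairs, so its count as unchanged shows nothing. The longer forkhead motif left 1 window. With AngII in Cy5 alone 2 intercalated cell markers fell in place of 5, and 3 fell in the authors' deposited table. The 4 arrays limit the precision, the 2 numbered pairs were counted as 1 independent pair, and genes near background give no ratio that can be read.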

Other observations

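Kit itself had no matched probe, but its ligand and signalling genes were read. Kitl, the gene of the KIT ligand, fell by 0.17 (limma adjusted p = 0.136 with the replicate block). Of 14 genes on that list 12 were tested. Among them, 4 rose, 5 fell and 3 missed the threshold, beside 39.1% of all features higher and 38.1% lower. The median was -0.01. With the block 2 rose and 1 fell. With AngII in Cy3 alone 2 rose and the median was 0.044, and with AngII in Cy5 alone 3 fell. Sh2b3, an adaptor gene that restrains KIT signalling, fell by 0.87, Stat5a, a transcription factor gene downstream of KIT, rose by 0.64 and Ptpn6, a phosphatase gene of blood cells, by 0.53. Lyn, a kinase gene, had 0.24 and an adjusted p of 0.123 with the block in limma.

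Markers of mast cells and melanocytes, 2 cell types that carry KIT outside the kidney tubule, were mostly not well above background. Of 11 mast cell and melanocyte genes with a probe 2 were tested, of which 1 rose and 1 missed the threshold. Hdc, which encodes histidine decarboxylase, had 0.56, and the other tested gene had -0.0094. The summed intensity of the 11 genes, with the offset of 50 taken off each, ran from 243.5 to 349.6 in AngII RNA and from 211.6 to 306.7 in media RNA. Counts of the lists here stand beside 39.1% of all features higher and 38.1% lower (16.3% and 14.6% with the block). Among 9 leukocyte markers 3 rose and 5 fell (3 and 0 with the block). Their median was -0.13, and 0.015 with AngII in Cy5 alone. Ptprc had 0.64, Cd74 0.57, Tyrobp 0.33 and C1qa -0.19 (limma adjusted p = 0.118 with the block). Among 10 endothelial markers 3 rose and 6 fell (median -0.09, and 3 and 1 with the block), with Sox18 at 0.49, Plvap at -0.49, Cldn5 at 0.48 and Flt1 at 0.37. Among 11 stromal markers 6 rose and 2 fell (median 0.11, and 4 and 0 with the block), with Acta2 at 1.69, Cspg4 at 1.07, Col1a1 at 0.40 and Postn at 0.40. Among 9 nephron progenitor markers 3 rose and 6 fell (1 and 4 with the block). Their median was -0.28, and 0.036 with AngII in Cy5 alone. Tmem100 had 0.77, Meox1 -0.60, Osr1 -0.58 and Eya1 -0.37.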
